A study of Oryza sativa Japonica Group with 24 samples.

Results

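The genes described are the starch synthases of rice, soluble and granule-bound, as they were expressed in anthers under short and long days. All loci named as a soluble starch synthase (*SS*) or a granule-bound starch synthase (*GBSS*) were taken by locus identifier, which gave 10 of the 55986 loci in the count table. They were 8 soluble enzymes, *SSI* (LOC_Os06g06560, chromosome 6), *SSIIa* (LOC_Os06g12450, chromosome 6), *SSIIb* (LOC_Os02g51070, chromosome 2), *SSIIc* (LOC_Os10g30156, chromosome 10), *SSIIIa* (LOC_Os08g09230, chromosome 8), *SSIIIb* (LOC_Os04g53310, chromosome 4), *SSIVa* (LOC_Os01g52250, chromosome 1) and *SSIVb* (LOC_Os05g45720, chromosome 5), and 2 granule-bound enzymes, *GBSSI* (LOC_Os06g04200, chromosome 6) and *GBSSII* (LOC_Os07g22930, chromosome 7). The rule used names and no measured value.

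Starch synthases move glucose from ADP-glucose onto the non-reducing end of a growing glucan chain. The granule-bound enzymes sit inside the starch granule and make amylose, and the soluble enzymes elongate the branched chains of amylopectin together with branching and debranching enzymes. Their classes prefer chains of different length: SSI acts on the shortest chains, the SSII enzymes on intermediate chains, the SSIII enzymes on long chains, and the SSIV class is known, mainly from Arabidopsis, for its part in starting granules. Cereal pollen fills with starch during its last days in the anther, and in rice this starch carries amylose made by the product of *GBSSI*, the *Waxy* gene.

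Anthers of the japonica variety 9522 (wild type), at the first pollen mitosis, were taken from field plants every 4 h through 1 day, from 08:00 to 04:00. LD plants had the natural day of about 14 h, and SD plants spent its last 2 h under a black cloth cover, which left a photoperiod of 12 h. Each of the 12 groups had 2 biological replicates, so that 24 RNA-seq libraries entered, with 18043740 to 27529649 counts each. Plants of both groups were of the same genotype, and the stage was judged by anther length. How many plants or panicles made up a sample is not given in the sources used here.

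Levels of cell type markers are given for later reference, as a description. Most of them are genes that the study had singled out in these same libraries, several for a difference between SD and LD, so their own difference is no independent evidence. The summed level of 3 pollen genes (*OsMATL*, *OsMADS63* and *OsMADS68*) ranged from 0.194 to 90.8 CPM (counts scaled to library size) over the 12 SD libraries and from 61.3 to 272 CPM over the 12 LD libraries, and *OsMATL* was at 0 in replicate 2 of SD 12:00. The summed level of 4 tapetum and anther wall genes (*OsABCG15*, *OsLAP6*, *HTH1* and *WDA1*) ranged from 932 to 2278 CPM in SD and from 290.1 to 957 CPM in LD libraries. Most of the LD sum was *WDA1*, with a mean of 611 CPM in LD and 1028 CPM in SD libraries. The other genes differed far more than the sum: LD means were 0.458 CPM (*OsABCG15*), 8.06 CPM (*OsLAP6*) and 0.481 CPM (*HTH1*), against SD means of 26.7, 436 and 41.4 CPM. SD libraries also varied among themselves: in replicate 2 of SD 16:00 the tapetum and wall sum was 932 CPM against 1771 CPM in replicate 1. Both lists moved with the main difference described below, and their part in it was not tested. In whole anthers, fewer cells of a type and less RNA per cell cannot be told apart.

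Differences between SD and LD were tested with edgeR's quasi-likelihood test, and adjusted p-values are Benjamini-Hochberg values over all loci tested. A gene was called up- or down-regulated when its adjusted p was under 0.05 and its expression differed at least by a log2 fold change of 1. Fold changes are given as SD over LD, so that a negative value means less mRNA in SD anthers. All 10 synthases passed the filter on low counts at every time point. Levels are in CPM after TMM scaling, are not corrected for gene length, and are therefore compared within a gene and not between genes.

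Most calls between the photoperiods fell at 12:00. At that time point 5 of the 10 synthases were called, 4 of them down-regulated in SD anthers (*SSI*, *SSIIa*, *SSIIIa* and *GBSSI*) and 1 up-regulated (*SSIIb*). Of all loci tested at 12:00, 40% were called, 20.4% up-regulated and 19.6% down-regulated, so the share among the synthases was near the background. At 08:00, where 17.7% of all loci were called and 10.4% were down-regulated, *GBSSI* was the 1 synthase called, downwards. The same was true at 04:00, where 15.9% of all loci were called and 11.8% were down-regulated. No synthase was called at 16:00, 20:00 or 00:00, when the share of all loci called was 0%, 4.99% and 1.56%. Beside these counts of 0 stand 5 synthases at 16:00, 2 at 20:00 and 3 at 00:00 with an unadjusted p under 0.05, as had 31% of all loci at 16:00, 28.2% at 20:00 and 19.7% at 00:00. DESeq2 called 1 synthase at 16:00 (*SSIIb*), 0 at 20:00 and 1 at 00:00 (*GBSSI*), where it called 5.01%, 5.88% and 5.45% of all loci. The median log2 fold change of the 10 synthases at 12:00 was -0.54, against -0.01 over all loci.

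**Figure D1:**
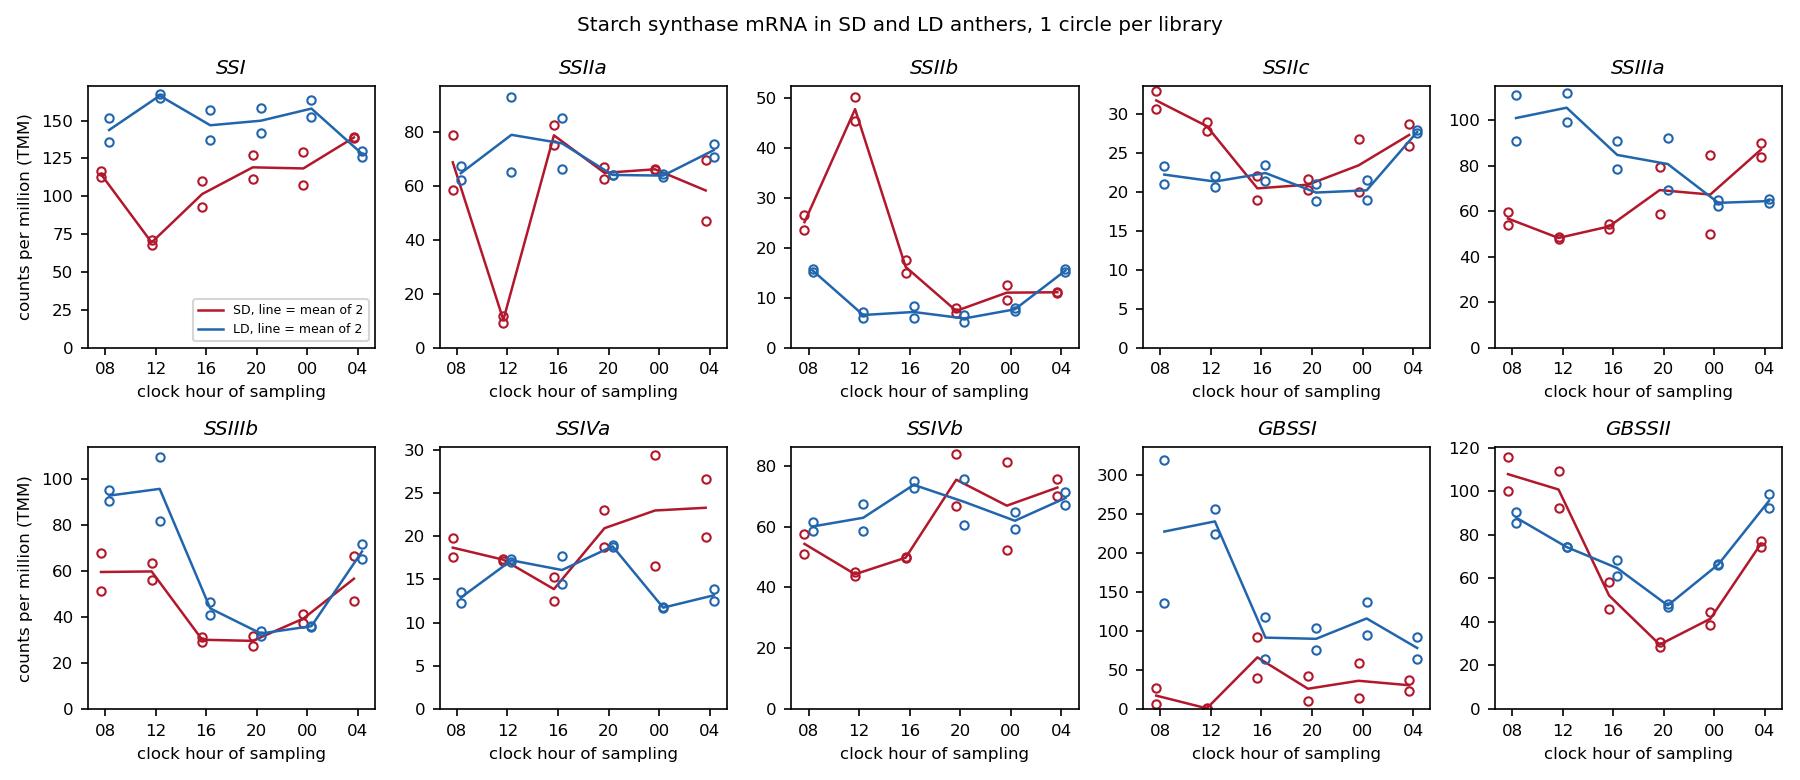
Levels of the 10 starch synthases in CPM after TMM scaling (vertical axes, each from 0) against the clock hour of sampling, with 1 circle per library and lines through the mean of 2 replicates (red, SD; blue, LD). At 12:00 the SD libraries of *SSI*, *SSIIa* and *GBSSI* lie below all LD libraries, while those of *SSIIb*, at 45.4 and 50.1 CPM, lie above all others.

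*GBSSI*, which encodes the granule-bound enzyme that makes amylose, had less mRNA in SD than in LD anthers at each of the 6 time points by its fitted value, and was called at 3 of them. At 08:00 its level was 27.6 and 6.87 CPM in the SD replicates and 136 and 319 CPM in the LD replicates. The groups did not overlap, although the replicates of each group differed more than 2-fold (log2 fold change -3.70 ± 0.68 (SE), adjusted p = 0.0102). This call was lost without replicate 2 of LD 08:00, with a log2 fold change of -2.97 and an adjusted p of 0.0514.

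At 12:00 *GBSSI* mRNA was close to 0 CPM in SD anthers. Its level was 1.41 and 0.486 CPM there, from 30 and 10 counts, against 224 and 257 CPM in LD anthers, from 3991 and 4923 counts. This was the largest difference of any synthase at any time point (log2 fold change -7.92 ± 0.37 (SE), adjusted p = 2.03e-05), and the ratio of the group means was 254-fold. Leaving out each of the 4 libraries in turn gave log2 fold changes between -8.87 and -7.37, and the gene stayed called.

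In the afternoon the groups came together. At 16:00 *GBSSI* was at 40.4 and 92.1 CPM in SD and 64.6 and 118 CPM in LD anthers, and the replicates overlapped (log2 fold change -0.46 ± 0.47 (SE), adjusted p = 0.540). The 95% interval by the normal quantile ran from -1.39 to 0.47, so a difference of 2-fold in favour of LD lay inside it. This interval is narrower than one with the degrees of freedom of the test would be. Without replicate 2 of LD 16:00 the value was 0.04.

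Through the night SD levels were again the lower ones. Levels at 20:00 were 42.3 and 9.84 CPM in SD and 75.8 and 104 CPM in the LD libraries (log2 fold change -1.80 ± 0.62 (SE), adjusted p = 0.124), and at 00:00 they were 14.0 and 58.5 CPM and 94.5 and 138 CPM (log2 fold change -1.66 ± 0.62 (SE), adjusted p = 0.212). Neither difference passed the threshold, although no SD library reached the LD libraries at these times. Both depended on the libraries or the fit. Without replicate 1 of SD 20:00 the gene was called at 20:00 (log2 fold change -3.21, adjusted p = 0.00139). At 00:00 it was called with all 4 libraries by DESeq2 (-1.69, adjusted p = 0.0458). It was also called without replicate 2 of SD 00:00 (-3.08) or without replicate 1 of LD 00:00 (-1.90). A fit with a replicate block called it too (-1.964). Replicate numbers do not pair the libraries, so no support is drawn from that fit.

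At 04:00, before dawn, *GBSSI* was at 37.7 and 23.4 CPM in SD and 64.1 and 92.3 CPM in LD anthers, and it was called (log2 fold change -1.37 ± 0.28 (SE), adjusted p = 0.0176). This call rested on single libraries and on the fit. It was lost without replicate 1 of LD 04:00 (log2 fold change -1.61, adjusted p = 0.0658), without replicate 2 of LD 04:00 (-1.09, adjusted p = 0.108) and in a single fit of the 24 libraries (-1.35, adjusted p = 0.190). Averaged over the 6 time points, *GBSSI* was down-regulated in SD anthers (log2 fold change -2.83 ± 0.33 (SE), adjusted p = 2.65e-06), the 1 synthase called in this contrast, in which 16.4% of all loci were called and 10.1% were called down-regulated. Leaving out each of the 24 libraries in turn moved the value between -3.06 and -2.68, with the call unchanged.

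**Figure D2:**
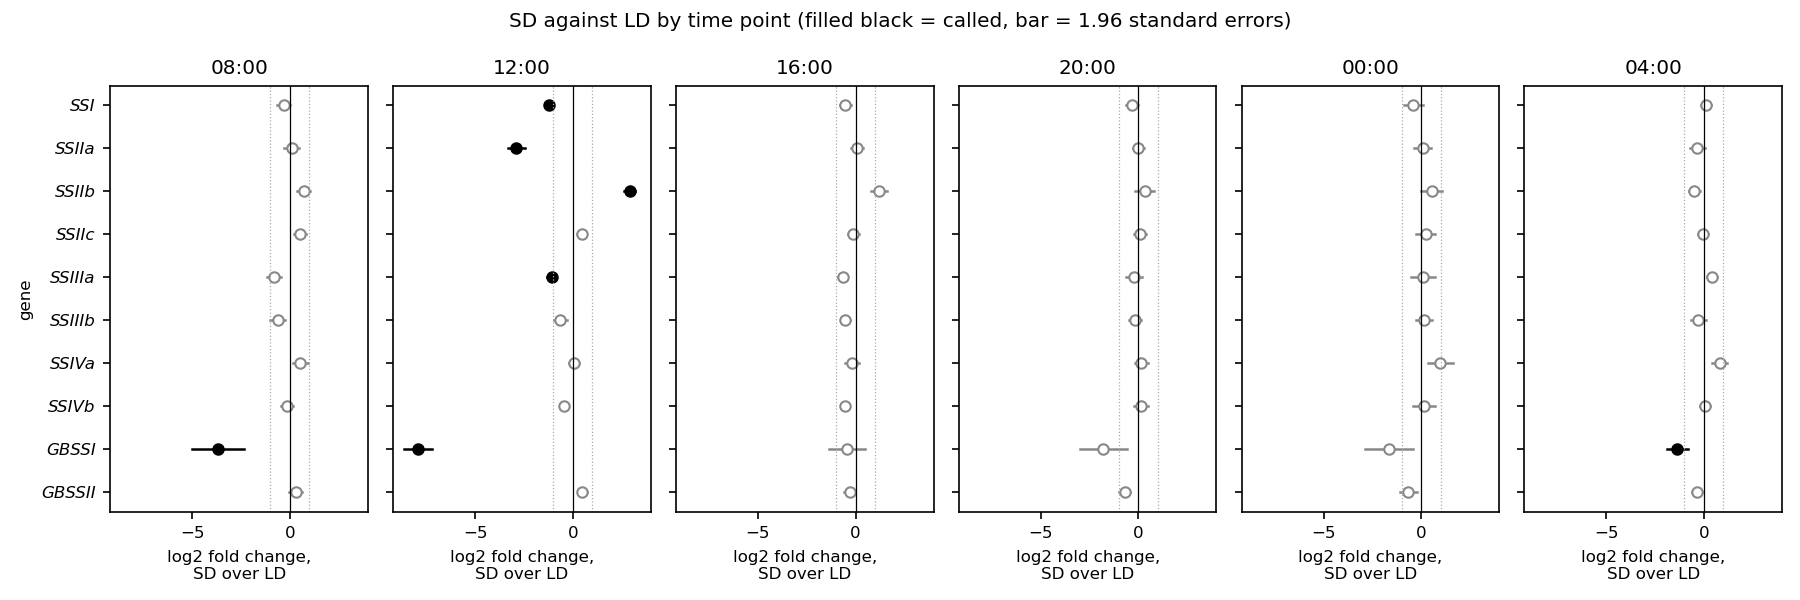
Log2 fold change of SD over LD (horizontal axes) for each synthase (vertical axis) at the 6 time points, with filled black points for calls, open grey points for the rest, and dotted lines at -1 and 1. Bars are 95% intervals by the normal quantile, which are narrower than intervals with the degrees of freedom of the test. *GBSSI* lies furthest to the left at 12:00 (-7.92) and *SSIIb* furthest to the right (2.92).

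Pollen markers followed *GBSSI* and the tapetum and wall markers ran against it. At 12:00 the pollen sum was 0.562 and 0.194 CPM in SD and 215 and 217 CPM in LD anthers, and all 3 pollen genes were down-regulated in SD both at 08:00 and at 12:00. The tapetum and wall sum at 12:00 was 2028 and 1769.8 CPM in SD and 319 and 337 CPM in LD anthers, and all 4 genes were up-regulated in SD at 08:00 and 12:00. Within the pairs of replicates the library with more *GBSSI* was also the one with more *OsMATL* and more *OsMADS68* in 12 of 12 groups, and with more *OsMADS63* in 11 of 12. The same agreement held in 4 of 12 groups for *OsABCG15*, 5 for *OsLAP6*, 3 for *HTH1* and 4 for *WDA1*. Here and for the synthases below, such agreement was counted for markers alone and not over all loci. It is therefore not shown to be particular to them. Over the 12 group means the Pearson correlation of log2 CPM between *GBSSI* and the pollen genes was 0.99 (*OsMATL*), 0.99 (*OsMADS63*) and 0.97 (*OsMADS68*). The points share their libraries, their depth and the photoperiod groups, and the part of the pollen markers in the *GBSSI* differences was not tested. The single green tissue marker, *OsCAB1R*, did not differ at 08:00 beyond its error (log2 fold change -0.01 ± 0.22) and was up-regulated in SD at 12:00 (1.43 ± 0.18). It was also up-regulated in SD at 20:00 (2.19) and down-regulated at 04:00 (-1.43). The paper describes it as controlled by the circadian clock. Its group means differed up to 135-fold over the day in SD and 193-fold in LD, so its level does not measure the amount of green tissue alone.

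**Figure D3:**
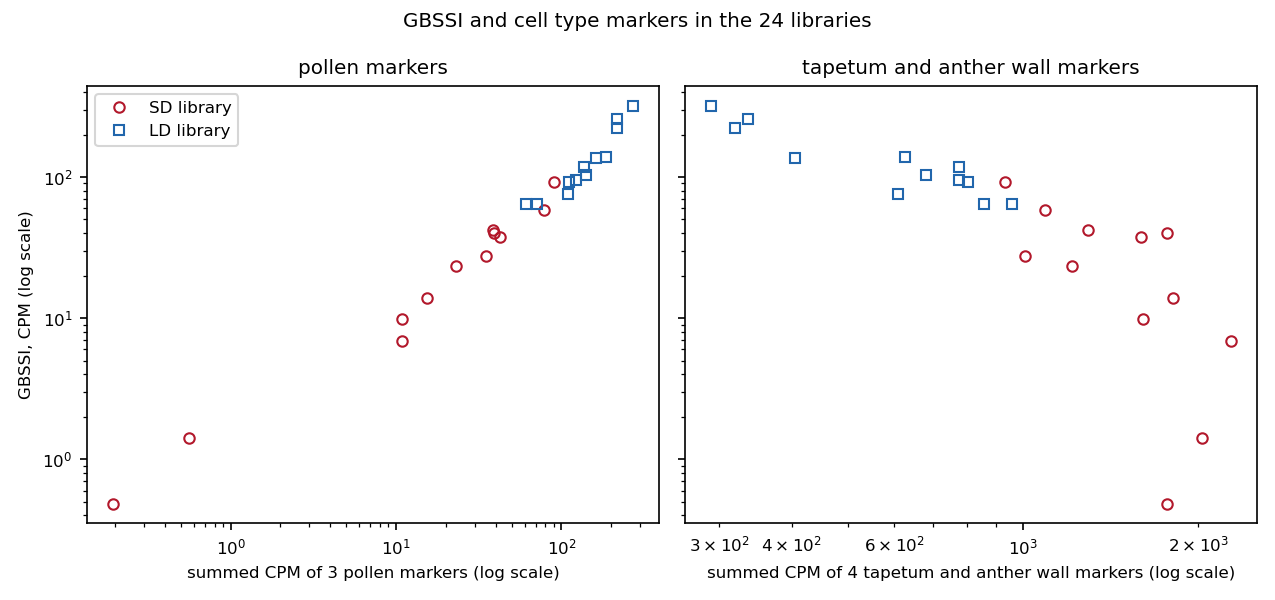
*GBSSI* level (vertical axis, CPM, log scale) in each of the 24 libraries against the summed CPM of 3 pollen markers (left, log scale) and of 4 tapetum and anther wall markers (right, log scale), with red circles for SD and blue squares for LD. The SD 12:00 libraries stand at the lower left of the pollen panel, at pollen sums of 0.562 and 0.194 CPM and *GBSSI* levels of 1.41 and 0.486 CPM.

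*GBSSII*, known in rice as the granule-bound form of leaves and other vegetative tissues, did not follow *GBSSI*. It was not called between the photoperiods at any time point. Its SD levels were nominally the higher ones in the morning, 92.4 and 109 CPM against 74.3 and 74.4 CPM in LD at 12:00 (log2 fold change 0.49 ± 0.12 (SE), adjusted p = 0.0130), a difference of less than 2-fold. In the evening they were the lower ones, 30.7 and 28.5 CPM against 48.1 and 47.0 CPM at 20:00 (log2 fold change -0.70 ± 0.14 (SE), adjusted p = 0.0459). *GBSSII* differed between time points, each a separate harvest, in both photoperiods. Its highest group mean was 108 ± 11.1 CPM (standard deviation, n = 2) in SD at 08:00 and its lowest 29.6 ± 1.56 CPM in SD at 20:00. In LD anthers the mean was 95.5 ± 4.32 CPM at 04:00 and 47.6 ± 0.822 CPM at 20:00. Changes over the day passed the test in SD (adjusted p = 3.58e-07) and in LD (adjusted p = 0.000374), and differed between them (adjusted p = 0.000591).

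At 12:00 most of the granule-bound counts belonged to *GBSSII* in SD and to *GBSSI* in LD libraries. *GBSSI* made up 1.4985% and 0.444% of the counts of the pair in the SD 12:00 libraries, with 95% Wilson intervals of 1.05% to 2.13% and 0.241% to 0.815%, against 75.1% and 77.5% in the LD 12:00 libraries. At 16:00 the shares were 46.9% and 61.2% in SD and 51.4% and 63.5% in LD, so the groups overlapped. Over all libraries the share ran from 0.444% to 61.2% in SD, with a median of 26.2%, and from 39.4% to 78.9% in LD, with a median of 62.3%. The shares carry the lengths of both transcripts and are set against each other only between libraries, and the intervals cover counting error alone.

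*SSI*, whose product elongates the shortest amylopectin chains, had less mRNA in SD anthers at 12:00. Its level was 71.3 and 67.7 CPM in SD and 168 and 165 CPM in LD anthers, with replicates of each group close together (log2 fold change -1.21 ± 0.11 (SE), adjusted p = 0.000188). Scaling by library totals in place of TMM, which put the median log2 fold change of all loci at 12:00 at 0.27, brought this value to -0.93 and took it below the fold threshold. Levels at 08:00 were 113 and 117 CPM in SD and 136 and 152 CPM in LD (log2 fold change -0.32 ± 0.17), and by 04:00 the groups had drawn level, at 138 and 139 CPM and 126 and 130.1 CPM (0.10 ± 0.12). In SD anthers *SSI* differed between time points, with group means from 69.5 ± 2.58 CPM at 12:00 to 139 ± 0.696 CPM at 04:00 (adjusted p = 0.00103). In LD anthers the change did not pass the test (adjusted p = 0.224), and the SD to LD difference itself varied with time (adjusted p = 0.000923). *SSI* had correlations of 0.85 to 0.91 with the 3 pollen genes and of -0.77 to -0.67 with the 4 tapetum and wall genes over the group means. Within replicate pairs it went with *OsMATL*, *OsMADS63* and *OsMADS68* in 8, 9 and 8 of 12 groups. Of the SD groups these were 3 for each gene. The same agreement held in 3 (*HTH1*) to 7 (*OsLAP6*) of 12 groups for the tapetum and wall genes. For *SSIIa* and *SSIIIa*, the other soluble genes down-regulated at 12:00, the pollen genes were at 0.68 to 0.87 and 0.67 to 0.76. The part of the pollen markers in these differences was not tested.

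The SSII genes moved in opposite directions at 12:00. *SSIIa*, the enzyme of intermediate chains in the endosperm that sets the gelatinization temperature of rice starch, was at 11.6 and 8.99 CPM in SD and 92.9 and 65.0 CPM in the LD libraries (log2 fold change -2.89 ± 0.22 (SE), adjusted p = 0.000106). No other group came near the SD 12:00 libraries: the other 11 group means lay between 58.3 ± 15.9 CPM (standard deviation, n = 2) in SD at 04:00 and 79.0 ± 19.7 CPM in LD at 12:00. At the other 5 time points the log2 fold changes of *SSIIa* ran from -0.35 at 04:00 to 0.10 at 08:00, and none passed the test. At 16:00 *SSIIa* stood at 75.0 and 82.5 CPM in SD and 85.2 and 66.4 CPM in LD anthers.

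*SSIIb*, known as the SSII form of rice leaves, was the synthase called up-regulated. At 12:00 it was at 45.4 and 50.1 CPM in SD and 6.01 and 7.04 CPM in the LD libraries (log2 fold change 2.92 ± 0.14 (SE), adjusted p = 2.30e-05), and leaving out each library in turn kept the value between 2.81 and 3.03. Its SD level was already the higher one at 08:00, 23.6 and 26.6 CPM against 15.2 and 15.7 CPM, with a fold change under 2-fold (log2 fold change 0.71 ± 0.17 (SE), adjusted p = 0.0274). At 16:00 it was at 14.9 and 17.4 CPM and 8.24 and 6.01 CPM (log2 fold change 1.19 ± 0.21 (SE), adjusted p = 0.0636). Although this difference missed the threshold in the fit of the 4 libraries, it passed without replicate 1 of LD 16:00 (1.43, adjusted p = 0.0285), in the fit of 24 libraries (1.18, adjusted p = 0.00314), and with DESeq2 (1.17, adjusted p = 2.96e-05). At 04:00 its sign was turned, with 11.1 and 11.002 CPM in SD and 15.7 and 15.1 CPM in LD (log2 fold change -0.50 ± 0.14 (SE), adjusted p = 0.0469). Markers moved with this gene too. *OsCAB1R*, up-regulated in SD at 12:00, had a Pearson correlation of 0.63 with *SSIIb* over the 12 group means. Within replicate pairs the library with more of one had more of the other in 10 of 12 groups. The level of *OsCAB1R* follows the time of day, so this is no measure of green tissue content. The tapetum and wall genes were at 0.39 to 0.63 and the pollen genes at -0.74 to -0.68 with *SSIIb*. The part of these markers in its difference was not tested.

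*SSIIc*, the third SSII gene, showed the least change of the class and was not called at any time point. It was at 30.5 and 32.8 CPM in SD and 21.0 and 23.3 CPM in the LD libraries at 08:00 (log2 fold change 0.52 ± 0.16 (SE), adjusted p = 0.0579), and at 29.0 and 27.8 CPM and 20.6 and 22.0 CPM at 12:00 (log2 fold change 0.46 ± 0.12 (SE), adjusted p = 0.0139). Over all groups its means lay within 1.59-fold of each other. Of the counts of the 3 SSII genes, *SSIIa* made up 13.5% and 10.3% and *SSIIb* 52.8% and 57.7% in the SD 12:00 libraries, against 77.8% and 69.1% and 5.03% and 7.48% in the LD 12:00 libraries. In the SD 16:00 libraries *SSIIa* was back at 67.1% and 69.5%.

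**Figure D4:**
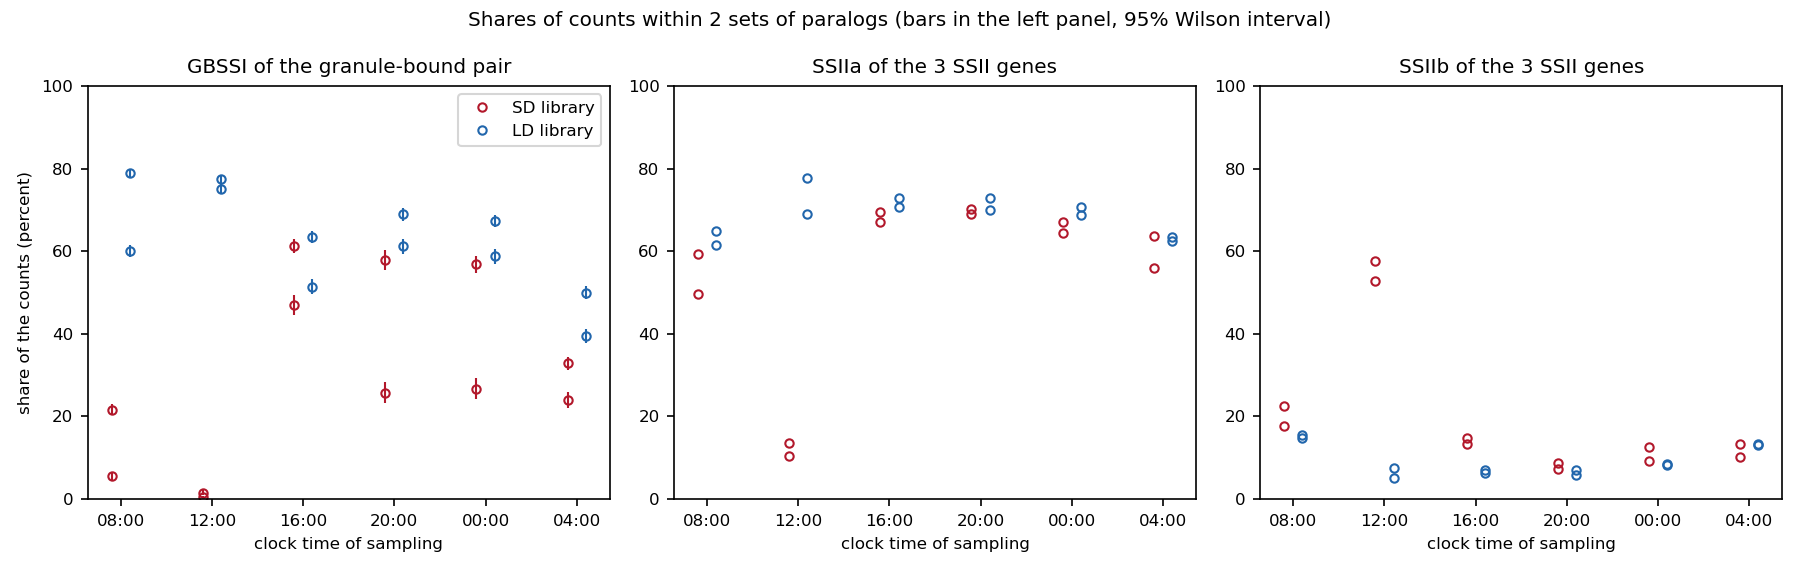
Share of counts (percent, vertical axes from 0 to 100) held by *GBSSI* within the granule-bound pair (left, bars are 95% Wilson intervals), by *SSIIa* within the 3 SSII genes (middle) and by *SSIIb* within them (right), against clock time, 1 circle per library (red, SD; blue, LD). In the SD 12:00 libraries *GBSSI* drops to 1.4985% and 0.444% and *SSIIb* rises to 52.8% and 57.7%.

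Both SSIII genes had less mRNA in SD anthers by day, and 1 of them was called. *SSIIIa*, which makes the long chains of endosperm amylopectin, was at 47.6 and 48.8 CPM in SD and 112 and 99.1 CPM in the LD libraries at 12:00 (log2 fold change -1.08 ± 0.11 (SE), adjusted p = 0.000346). This call sits at the fold threshold: the value was -0.99 without replicate 1 of LD 12:00 and -0.81 with library totals, and in both cases the gene was no longer called. Tested against a 2-fold change it had an adjusted p of 0.259. At 08:00 the levels were 54.0 and 59.4 CPM and 90.8 and 111 CPM (log2 fold change -0.82 ± 0.18 (SE), adjusted p = 0.0175), without overlap but under the fold threshold. At 04:00 the order was turned, 89.9 and 84.0 CPM in SD against 63.6 and 65.1 CPM in LD (log2 fold change 0.41 ± 0.12 (SE), adjusted p = 0.0459). *SSIIIb*, a form known mainly from rice leaves, was at 56.1 and 63.3 CPM in SD and 81.7 and 109 CPM in the LD libraries at 12:00 (log2 fold change -0.63 ± 0.16 (SE), adjusted p = 0.0139) and was not called at any time point.

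*SSIIIb* differed between time points in SD (adjusted p = 0.000530) and in LD anthers (adjusted p = 1.01e-05). In LD anthers it fell from 81.7 and 109 CPM at 12:00 to 41.0 and 46.4 CPM at 16:00 (log2 fold change -1.13 ± 0.18 (SE), adjusted p = 0.000411). In this step 11.2% of all loci were called and 4.6% fell, and *SSIIIb* was the 1 synthase among them. The call was lost without replicate 2 of LD 12:00 (-0.88), without replicate 1 of LD 16:00 (-0.98) and with library totals (-0.91), each time with a value under the fold threshold. The same step in SD anthers had a log2 fold change of -0.99 ± 0.18 (SE), adjusted p = 0.00127, just short of that threshold. It passed with library totals (-1.14), with RLE factors (-1.03) and with every locus of at least 1 count (-1.02). It also passed in 22 of the 24 fits that left out 1 library, but most of those kept all libraries of the step. Among fits without a library of the step, it passed without replicate 1 of SD 12:00 (-1.10) or without replicate 2 of SD 16:00 (-1.06). It did not pass without the other replicate of either time point. The step is therefore not shown to differ between the photoperiods. The interaction of photoperiod and time did not pass the test for this gene (adjusted p = 0.0640).

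The SSIV genes were not called at any time point. *SSIVa* was at 26.6 and 19.9 CPM in SD and 12.5 and 13.9 CPM in the LD libraries at 04:00 (log2 fold change 0.81 ± 0.19 (SE), adjusted p = 0.0259), and without replicate 2 of SD 04:00 it reached the fold threshold (1.02, adjusted p = 0.000503). At 00:00 its SD replicates stood wide apart, at 29.4 and 16.6 CPM against 11.7 and 11.8 CPM in LD (log2 fold change 0.99 ± 0.32 (SE), adjusted p = 0.167). Without replicate 2 of SD 00:00 the value was 1.29. The replicate with more *SSIVa* had more *OsLAP6* in 11 of 12 groups, *OsABCG15* in 10, *HTH1* in 9 and *WDA1* in 6. For *OsMATL*, *OsMADS63* and *OsMADS68* the numbers were 4, 5 and 4. Its correlations over group means were 0.37 to 0.64 with the tapetum and wall genes and -0.51 to -0.37 with the pollen genes. The part of these markers was not tested. At 12:00, when 5 of the family were called, *SSIVa* was level in both groups, 17.1 and 17.4 CPM and 17.4 and 17.1 CPM. Its log2 interval by the normal quantile, narrower than one from the test, was -0.20 to 0.31. *SSIVb* was at 43.8 and 44.9 CPM in SD and 58.5 and 67.3 CPM in the LD libraries at 12:00 (log2 fold change -0.46 ± 0.11 (SE), adjusted p = 0.0109), the lowest group mean of this gene being 44.3 ± 0.813 CPM (standard deviation, n = 2) in SD at 12:00 and the highest 75.4 ± 12.1 CPM in SD at 20:00.

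The 12:00 levels of SD anthers were compared with those at 08:00 and at 16:00 in 2 steps, which share the 12:00 libraries. Each time point is a separate harvest, so a step compares different anthers. All 3 pollen genes were called in both steps, lower at 12:00 than at 08:00 (median log2 fold change -5.90) and higher at 16:00 than at 12:00 (7.86). None of the 4 tapetum and wall genes was called in either step. The part of the pollen markers in the steps of the synthases was not tested. From 08:00 to 12:00 in SD anthers, 9.41% of all loci were called and 5.59% fell. So did 2 synthases, *SSIIa* (log2 fold change -2.74 ± 0.22 (SE), adjusted p = 1.13e-06) and *GBSSI* (log2 fold change -4.18 ± 0.95 (SE), adjusted p = 0.00697). The *GBSSI* step was lost without replicate 1 of SD 08:00 (-2.82, adjusted p = 0.102) and without replicate 2 of SD 12:00 (-3.61, adjusted p = 0.0951). For *SSIIb* the same step had a log2 fold change of 0.93 ± 0.17 (SE), adjusted p = 0.00195, under the fold threshold. Without replicate 2 of SD 08:00 the step was 1.03 and without replicate 1 of SD 12:00 1.02, and both values were called.

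From 12:00 to 16:00 in SD anthers, where 12.6% of all loci were called, 8.73% upwards and 3.82% downwards, the 3 genes differed in the opposite direction. *SSIIa* rose (log2 fold change 2.94 ± 0.22 (SE), adjusted p = 4.18e-07), *GBSSI* rose (log2 fold change 6.11 ± 0.99 (SE), adjusted p = 0.000541) and *SSIIb* fell (log2 fold change -1.56 ± 0.18 (SE), adjusted p = 2.33e-05). These 3 calls held without each library in turn, with *GBSSI* between 5.39 and 7.05. For *GBSSII* this step had a log2 fold change of -0.95 ± 0.13 (SE), adjusted p = 0.000154, and it was called without replicate 1 of SD 12:00 (-1.09), without replicate 2 of SD 16:00 (-1.15) and with library totals (-1.11). In LD anthers the step from 08:00 to 12:00, with 6.42% of all loci called and 3.49% down-regulated, moved *SSIIb* downwards (log2 fold change -1.24 ± 0.18 (SE), adjusted p = 0.000391) and no other synthase past the threshold. LD *GBSSI* stood at 136 and 319 CPM at 08:00 and 224 and 257 CPM at 12:00 (0.08 ± 0.73). Its step from 12:00 to 16:00 in LD anthers had a log2 fold change of -1.39 ± 0.74 (SE), adjusted p = 0.187. It was called with every locus of at least 1 count (-1.34, adjusted p = 5.19e-09). The value hardly moved on the same counts, so no support is drawn from that call.

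Across the whole day, 9 of the 10 synthases changed in SD anthers, the exception being *SSIVa* (adjusted p = 0.0683), where 34.9% of all loci did so. In LD anthers 4 changed, *SSIIb* (adjusted p = 2.19e-05), *SSIIIa* (0.0319), *SSIIIb* (1.01e-05) and *GBSSII* (0.000374), against 38.4% of all loci. With every locus of at least 1 count kept in the fit, *GBSSI* (0.208 before, 5.70e-22 then) and *SSIVa* (0.0495) also passed in LD anthers, and *SSIVa* in SD anthers (0.0384). The *GBSSI* counts were the same in both fits, and its LD replicates stood apart, as at 08:00 (136 and 319 CPM). No support is therefore drawn from its smaller p-value. Of the synthases that passed with the usual filter, *SSIIIa* was the weakest in both photoperiods. Its call in SD was lost without replicate 1 or 2 of SD 04:00, SD 12:00 or SD 16:00 (adjusted p from 0.0610 to 0.117). Its call in LD was lost without replicate 1 or 2 of LD 00:00, LD 04:00, LD 12:00 or SD 12:00, without replicate 2 of LD 08:00 and without replicate 1 of SD 16:00 (adjusted p from 0.0513 to 0.104). *GBSSI* lost its SD call without replicate 2 of SD 12:00 (adjusted p = 0.0602).

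Whether the SD to LD difference itself changed over the day was tested by the interaction of photoperiod and time point, which 48.5% of all loci passed. It held for 7 synthases: *SSIIb* (adjusted p = 1.18e-05), *SSIIa* (2.45e-05), *GBSSII* (0.000591), *SSI* (0.000923), *GBSSI* (0.00217), *SSIIIa* (0.00358) and *SSIVa* (0.0209). The *SSIVa* value rose above 0.05 without replicate 1 of LD 16:00 (0.0535) and without replicate 2 of SD 16:00 (0.0605). *SSIIc*, *SSIIIb* and *SSIVb* had adjusted p-values of 0.0658, 0.0640 and 0.0584. Over the day as a whole, 9 of the 10 synthases had an adjusted p under 0.05, as did 58.4% of all loci, with differences for all but *GBSSI* of less than 2-fold: *SSIIb* 0.85 ± 0.07, *SSIVa* 0.38 ± 0.09 and *SSIIc* 0.18 ± 0.06 towards SD, and *SSIIa* -0.51 ± 0.08, *SSI* -0.46 ± 0.05, *SSIIIa* -0.39 ± 0.08, *SSIIIb* -0.36 ± 0.07 and *GBSSII* -0.21 ± 0.05 towards LD. *SSIVb*, at -0.15 ± 0.07, did not pass. These contrasts use the same 24 libraries as the comparisons at single time points and are not independent of them.

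The 12 groups were ranked by mean, and neighbours were counted as apart where their replicates did not overlap. For *GBSSI* the order ran from 240.4 ± 23.1 CPM (standard deviation, n = 2) in LD at 12:00 down to 0.946 ± 0.650 CPM in SD at 12:00, with all 6 LD groups above all 6 SD groups. Neighbours in that order overlapped in their replicates except for the last pair, SD 08:00 and SD 12:00. *SSIIa* had 1 such gap of 11, again above SD 12:00. *SSIIb* had 4, among them those below SD 12:00 and below SD 08:00, *SSIIIb* had 6 and *GBSSII* had the most, 7 of 11. SD at 12:00 held the lowest mean of *SSI*, *SSIIa*, *SSIIIa*, *SSIVb* and *GBSSI* and the highest of *SSIIb*. LD at 12:00 held the highest mean of *SSI*, *SSIIa*, *SSIIIa*, *SSIIIb* and *GBSSI*. Neither gaps nor extremes were counted over all loci, so they describe these genes and are not shown to be particular to them.

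Profiles over the 12 group means divided the family. *GBSSI* had Pearson correlations of log2 CPM of 0.88 with *SSI*, 0.81 with *SSIIa* and 0.71 with *SSIIIa*, and of -0.72 with *SSIIb*, -0.60 with *SSIIc* and -0.12 with *GBSSII*. *SSIIb* was at -0.84 with *SSI* and 0.73 with *SSIIc*, and *GBSSII* was most like *SSIIIb* (0.75) and *SSIIc* (0.69). These are descriptions over 12 points that share libraries and depth, and the SD 12:00 group weighs heavily in several of them: within the 6 LD groups the correlation of *SSI* with *SSIIa* was 0.01, against 0.84 within the 6 SD groups.

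**Figure D5:**
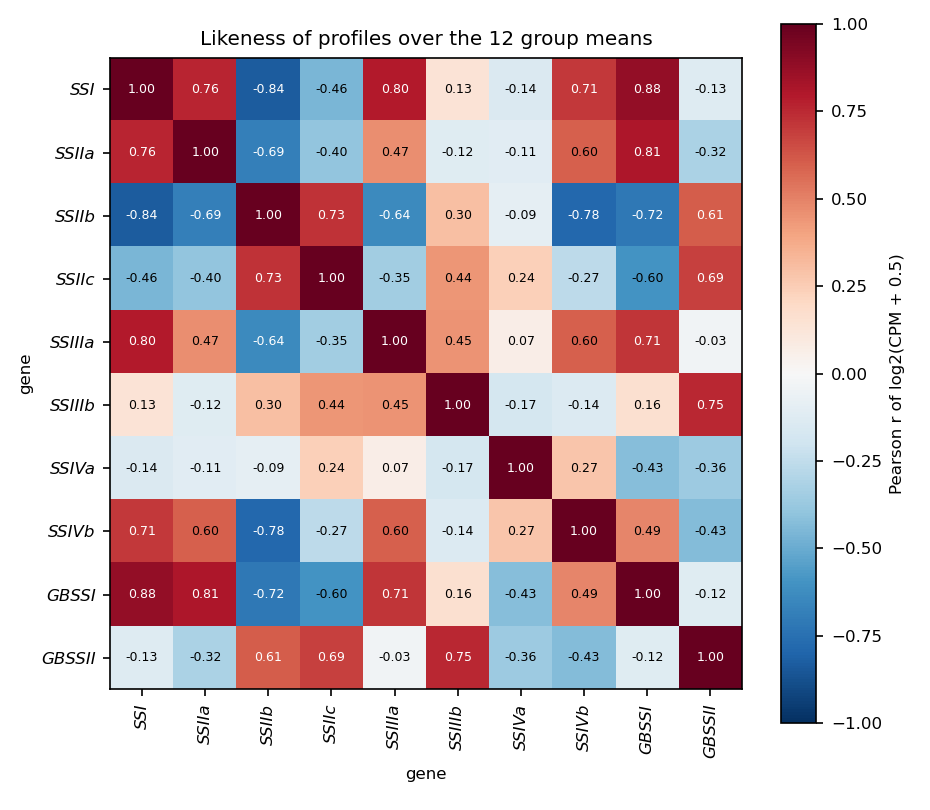
Pearson correlation of log2(CPM + 0.5) between each pair of synthases over the 12 group means, from blue (-1) to red (1), with the value written in each cell. *GBSSI*, *SSI*, *SSIIa* and *SSIIIa* form a block of positive values, and *SSIIb* is negative against each of them, down to -0.84 with *SSI*. *SSIVb* is positive with each gene of that block, from 0.49 with *GBSSI* to 0.71 with *SSI*, and stands at -0.78 with *SSIIb*.

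Among 21654 loci with a mean of at least 1 CPM, those most like *GBSSI* over the 12 groups were LOC_Os01g61390 (r = 0.998, annotated as an unclassified transposon protein), LOC_Os08g43570 (r = 0.995, a beta-galactosidase precursor) and LOC_Os03g05770 (r = 0.995, a peroxidase precursor). The nearest loci of the others were LOC_Os06g09320 for *SSI* (r = 0.970), LOC_Os01g05289 for *SSIIa* (r = 0.977), LOC_Os04g58200 for *SSIIb* (r = 0.987), LOC_Os08g34210 for *SSIIc* (r = 0.958), LOC_Os05g30790 for *SSIIIa* (r = 0.977), LOC_Os10g25300 for *SSIIIb* (r = 0.950), LOC_Os01g70330 for *SSIVa* (r = 0.974), LOC_Os09g39640 for *SSIVb* (r = 0.946) and LOC_Os06g06180 for *GBSSII* (r = 0.918).

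The other enzymes of starch metabolism were counted from a list of 13 genes, most of which the study had picked as differentially expressed in these same libraries, so their direction is not independent evidence. At 12:00, 12 of the 13 were down-regulated in SD anthers (median log2 fold change -2.49, against -0.01 over all loci), and at 08:00 it was 7 of the 13 (median -1.87, against 0.01). Of all loci, 19.6% at 12:00 and 10.4% at 08:00 were down-regulated. None was up-regulated at any time point. The counts of down-regulated genes were 0 at 16:00 (0% of all loci), 3 at 20:00 (3.76%), 0 at 00:00 (0.804%) and 0 at 04:00 (11.8%). At these times 5, 10, 10 and 7 of the 13 had an unadjusted p under 0.05, as had 31%, 28.2%, 19.7% and 44.2% of all loci. Averaged over the day 7 of the 13 were down-regulated, against 10.1% of all loci.

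Substrate supply, a phosphorylase, branching and debranching were all represented at 12:00 among the genes named here. *OsAPL4* and *OsAPS2*, a large and a small subunit of the enzyme that makes ADP-glucose, had levels of 5.34 and 3.94 CPM and 90.1 and 98.1 CPM in SD anthers. In LD anthers they stood at 139 and 167 CPM (log2 fold change -4.99 ± 0.19 (SE), adjusted p = 9.48e-06) and 206 and 196 CPM (log2 fold change -1.05 ± 0.12 (SE), adjusted p = 0.000504). The phosphorylase *Pho2* was at 44.7 and 44.0 CPM in SD and 3098 and 3452 CPM in the LD libraries (log2 fold change -6.16 ± 0.18 (SE), adjusted p = 6.00e-06). *OsBEIIb*, a branching enzyme, was at 37.5 and 36.8 CPM and 486 and 496 CPM (log2 fold change -3.68 ± 0.13 (SE), adjusted p = 8.05e-06), and *ISA3*, a debranching isoamylase, at 38.6 and 37.6 CPM and 332 and 371 CPM (log2 fold change -3.16 ± 0.13 (SE), adjusted p = 1.26e-05). Over the 12 group means *Pho2* and *OsBEIIb* were the list members most like *GBSSI* (r = 0.99 and r = 0.95), while *GBSSII* was at -0.08 and -0.05 with them. The difference between this list and the synthases was not tested, and the part of the pollen markers, which moved the same way as the list, was not tested either.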

How the data were processed

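RNA from SD and LD anthers was sequenced on the Ion Proton platform. The authors mapped filtered reads with MapSplice to the MSU genome of Nipponbare and deposited raw read counts per locus; the counting tool, strand use and the handling of reads that match several paralogs are not given in the sources used here. The deposited text on the design describes LD by hours of dark, and the treatment label of about 14 h of light was followed. Totals were 18043740 to 27529649 counts per library, and 3 counts correspond to at most 0.174 CPM.

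Counts were tested with edgeR 4.0.16 in R 4.3.3 (filterByExpr, TMM, quasi-likelihood F-test, Benjamini-Hochberg adjustment over all loci tested), with the 4 libraries of a time point for SD against LD and with a model of 12 groups for the day average, the interaction, the change over the day and the steps around 12:00. Calls required an adjusted p under 0.05 and, for fold changes, a log2 fold change of 1 or more in either direction. Standard errors are the log2 fold change divided by the root of F. Intervals of fold changes use these errors with the normal quantile. They leave out the few degrees of freedom of the F-test and are therefore too narrow. Alternatives were DESeq2 1.42.0, RLE factors, library totals, other filters, 1 fit of all libraries, a replicate block, other fold thresholds and leaving out each library. The fits were tested on simulated data. Shares have Wilson intervals, which cover counting error only. Figures were drawn with matplotlib 3.10.9.

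The genes named were all 10 synthases, 5 of 13 other starch enzymes, the 3 loci most like *GBSSI* and the 1 most like each other synthase by Pearson correlation over group means. Members and lists were chosen with earlier results of these data known. Of the 10 names, 5 were matched by synonym in the RefSeq gene table of assembly ASM3414082v1, which differs from the build of the files, so no coordinates, sequences, promoter motifs or levels per length were used here.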

Additional observations from a re-analysis of the deposited data

Results flagged for a closer look

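For 7 of the 10 synthases the difference between SD and LD anthers was not the same at all 6 time points, by the interaction of photoperiod and time point in edgeR's quasi-likelihood test with Benjamini-Hochberg adjustment, which 48.5% of all loci tested also passed. The adjusted p was 1.18e-05 for *SSIIb*, whose log2 fold changes ran from -0.50 at 04:00 to 2.92 at 12:00. It was 2.45e-05 for *SSIIa*, with -2.89 at 12:00 and 0.10 at 08:00. *SSI* had an adjusted p of 0.000923 and values from -1.21 at 12:00 to 0.10 at 04:00. For *SSIIIa* it was 0.00358, with -1.08 at 12:00 and 0.41 at 04:00. *SSIVa* stood at 0.0209, with -0.21 at 16:00 and 0.99 at 00:00. For *GBSSI* it was 0.00217, with -7.92 at 12:00 and -0.46 at 16:00, and for *GBSSII* 0.000591, with 0.49 at 12:00 and -0.70 at 20:00. Groups of 2 libraries were too small to look for single libraries that stand apart.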

How the results depend on the processing

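Each group had 2 libraries. Of 140 synthase values with a test, recomputed 3040 times in all, 2883 kept their direction and their side of the threshold, 34 lost the call, 82 gained one and 41 changed sign, the last for values that were not called. Many of these refits left out a library outside the groups compared, which could hardly move the value. The number of synthases called moved as follows. Except without a fold threshold, the share of all loci called under the same setting is not set beside the count here. These counts are therefore no result about the synthases as a set. Without a fold threshold it was 3 at 08:00, 9 at 12:00, 1 at 20:00 and 4 at 04:00, against 25%, 62.5%, 5.94% and 30.2% of all loci. With library totals it was 3 at 12:00, 5 from 12:00 to 16:00 in SD and 0 from 12:00 to 16:00 in LD. With DESeq2 it was 1 at 16:00 and 1 at 00:00. With every locus of at least 1 count it was 1 at 16:00 and 2 from 12:00 to 16:00 in LD. One fit of 24 libraries gave 1 at 16:00 and 0 at 04:00, and testing against a 2-fold change gave 4 at 12:00 and 0 at 04:00. The interaction counted 9 with DESeq2 and with library totals, the change over the day 10 in SD and 6 in LD with every locus of at least 1 count, and 3 in LD with library totals. Leaving out each library gave 0 to 1 at 08:00, 4 to 5 at 12:00, 0 to 1 at 16:00, 0 to 1 at 20:00, 0 to 2 at 00:00, 0 to 2 at 04:00, 1 to 3 from 08:00 to 12:00 in SD, 3 to 5 from 12:00 to 16:00 in SD, 0 to 1 from 12:00 to 16:00 in LD, 6 to 9 for the interaction, and 7 to 10 in SD and 3 to 6 in LD for the change over the day. The uncalled SD to LD values that changed sign then ranged, on the log2 scale, from -0.14 to 0.30 for *SSIIa* at 08:00, from -0.10 to 0.25 for *SSIIa* and from -1.16 to 0.044 for *GBSSI* at 16:00, from -0.053 to 0.061 for *SSIIa*, -0.020 to 0.13 for *SSIIc*, -0.025 to 0.29 for *SSIVa* and -0.030 to 0.30 for *SSIVb* at 20:00, from -0.34 to 0.38 for *SSIIIa* and -0.22 to 0.36 for *SSIVb* at 00:00, and from -0.092 to 0.029 for *SSIIc* and -0.0070 to 0.13 for *SSIVb* at 04:00. The *GBSSI* step from 08:00 to 12:00 in LD ranged from -0.42 to 0.80. Apart from these, *SSIIa* at 20:00 was -0.0021 with a minimum of 1 CPM in 2 libraries and *SSIIc* at 04:00 was 0.13 with library totals. The cause of these changes was not tested.

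Replicate numbers do not pair the libraries: deviations of same-numbered SD and LD libraries correlated at -0.289 (08:00), 0.0531 (12:00), 0.306 (16:00), -0.185 (20:00), 0.214 (00:00) and -0.0943 (04:00). With the replicate block 1 synthase was called at 16:00 (*SSIIb*) and 1 at 00:00 (*GBSSI*), and no other count of called synthases changed. Over all loci the block moved the number called from 0 to 2078 at 16:00 and from 364 to 3021 at 00:00, and from 1172 to 788 at 20:00.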

Other observations

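Summed over the 10 synthases, anther libraries held 416 to 596 CPM under SD, with a median of 509 CPM, and 538 to 934 CPM under LD, with a median of 638 CPM. The 8 soluble genes made up 322 to 481 CPM of this in SD and 414 to 557 CPM in LD libraries, and the granule-bound pair 38.3 to 150.4 CPM in SD and 124 to 405 CPM in LD libraries. The lowest total was in replicate 1 of SD 12:00 and the highest in replicate 2 of LD 08:00. These sums add genes of different length and are given as values, with no test.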
